A study of Mus musculus with 6 samples.

Results

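The HOX genes are homeobox genes that lie in 4 clusters, HOXA to HOXD, and carry the positional identity of a tissue. They were chosen here by name, as every probeset whose only gene symbol is Hoxa, Hoxb, Hoxc or Hoxd followed by a number. This gave 37 HOX genes of 19938 genes named by such probesets, with 1 probeset each. HOXA held 10 of them and HOXB, HOXC and HOXD 9 each. The probeset of Hoxb8 is shared with Hoxb7 and was not used.

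Expression was measured in primary osteoblasts of 3 male wild-type mice (C57BL6/J in the labels) aged 8 to 12 weeks, numbered 2, 4 and 5. The cells grew out of the shafts of long bones, were used at passage 2 according to the methods and at passage 2 to 3 according to the labels, and were differentiated for 14 days. From the cell pool of each mouse, 1 culture was left unstimulated for 4 h in proliferation medium, and 1 received 100 ng/ml recombinant murine C5a, the inflammatory fragment of complement factor C5, in the same medium for 4 h. This gave 6 arrays, 3 per group and 2 per mouse. The sources used here do not say whether the bones came from the forelimb or the hindlimb, nor which bones went into each pool.

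HOX proteins are transcription factors that bind DNA together with cofactors of the TALE family, among them the Pbx and Meis proteins. In the embryo the genes of a cluster are switched on in the order in which they lie along the chromosome, from the anterior genes with low numbers to the posterior genes with high numbers. Genes that hold the same place in the different clusters are called a paralog group and carry the same number. In the limbs, posterior HOXA and HOXD genes pattern the segments from shoulder or hip to digits, HOXC genes of groups 9 to 11 are known from the hindlimb, and fibroblasts and bone cells of the adult keep much of the HOX pattern of the site they came from. Polycomb and Trithorax proteins keep the clusters silent or active, and retinoic acid acts on the anterior genes.

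The values are log2 levels of the robust multiarray average (RMA), whose medians over a whole array lay between 5.89 and 5.93. They compare the same probeset between arrays, and levels of different genes were not ranked against each other. As a floor, the 95th percentile of 1015 olfactory receptor genes, which osteoblasts are not known to use, was taken on each array and lay between 5.31 and 5.49. The groups and the mice were compared with limma, a moderated linear model, in a fit that holds both the mouse and the treatment. Adjusted p refers to Benjamini-Hochberg adjustment over the whole table of 35556 probesets. All mouse comparisons rest on 2 cultures per mouse from the same cell pool, so that their p-values measure the spread between cultures of a pool. The arrays of mouse 5 stood apart in markers of other cells. Of 9 measured macrophage and osteoclast markers, 9 were lower in both mouse 5 arrays than in any other array, against 7.47% of all probesets. Of these 9 markers, 7 differed between the mice at an adjusted p under 0.05 by a moderated F test, against 2.5% of all probesets. Their summed level on the log2 scale was 13.77 to 14.08 in mouse 2, 14.01 to 14.26 in mouse 4 and 11.24 to 11.36 in mouse 5, where Ptprc was not above the floor in either array and Itgam not in the unstimulated array. The 7 osteoblast markers were above the floor in all arrays, and their summed level was 15.51 to 15.52, 15.78 to 15.81 and 15.24 to 15.31 in mice 2, 4 and 5. Of these markers 6 were lower in both arrays of mouse 5 than in any other array, 4 (Sp7, Alpl, Ibsp and Pth1r) differed between the mice at an adjusted p under 0.05, and the median difference was -0.20 between mice 5 and 2 and -1.43 between mice 5 and 4. Ibsp, a bone matrix protein, differed most, by -4.22 and -5.46. In bulk RNA, fewer cells of a type and less RNA per cell cannot be told apart.

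Sequences are shown for the HOX genes on which the results below turn most, where the RefSeq promoter table holds them, and for the miRNAs embedded in the clusters. The table held 23 windows for 21 of the 37 genes, and of the 7 genes that differed between the mice only Hoxb4 was among them. Each window is the 250 bases upstream of an annotated start in GRCm38.p6, printed 5′ to 3′ on the strand of the gene. Capitals mark matches on either strand to 6 short motifs. Those of the core promoter are the TATA box, spelled TATAAA, the CCAAT box, spelled as its name says, and the GC box, which is searched as GGGCGG. The sites of inducible or HOX-related factors are the AP-1 site, searched as TGACTCA, the half-site of retinoic acid receptors, which reads AGGTCA, and a Pbx-Hox site, which reads TGATTNAT with N for any base. Hoxa10, the HOX gene with the smallest p of the comparison between C5a and unstimulated cultures, has 2 annotated starts, at the ends of chr6:52240855-52241104 and chr6:52234940-52235189, both on the minus strand. Hoxb4 lies on the plus strand with its window at chr11:96318017-96318266.
Hoxa10 first start: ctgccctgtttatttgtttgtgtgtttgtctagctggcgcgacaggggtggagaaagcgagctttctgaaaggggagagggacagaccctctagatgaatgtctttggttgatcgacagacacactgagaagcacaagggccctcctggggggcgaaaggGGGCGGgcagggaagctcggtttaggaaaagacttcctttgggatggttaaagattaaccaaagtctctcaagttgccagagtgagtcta
Hoxa10 second start: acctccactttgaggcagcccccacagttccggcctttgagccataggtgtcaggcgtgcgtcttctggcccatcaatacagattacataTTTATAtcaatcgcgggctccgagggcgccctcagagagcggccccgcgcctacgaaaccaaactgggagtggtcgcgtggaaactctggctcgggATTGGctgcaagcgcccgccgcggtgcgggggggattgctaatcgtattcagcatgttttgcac
Hoxb4: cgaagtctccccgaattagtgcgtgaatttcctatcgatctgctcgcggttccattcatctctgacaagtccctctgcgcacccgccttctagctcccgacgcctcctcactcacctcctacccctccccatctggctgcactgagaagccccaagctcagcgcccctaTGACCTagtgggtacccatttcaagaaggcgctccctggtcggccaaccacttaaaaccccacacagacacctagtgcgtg
The first Hoxa10 window held a GC box and the second a TATA box and a CCAAT box on the complementary strand, while the Hoxb4 window held a receptor half-site on the complementary strand. Over all 32851 promoter windows of the same length, 12.4% held the TATA box, 33.8% the CCAAT box, 32.7% the GC box and 14% the receptor half-site. Among the 23 HOX windows these shares were 13%, 56.5%, 39.1% and 26.1%. The AP-1 and Pbx-Hox sites were in 4.46% and 2.82% of all windows, in 4.35% and 8.7% of the HOX windows and in none of the windows printed. A match is a run of letters and not a measured binding site.

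The miRNAs miR-10 and miR-196 lie inside the HOX clusters, and miR-196 is known for targeting HOX transcripts. Their mature sequences (RefSeq, GRCm38.p6) are given with the seed, bases 2 to 8, in capitals. miR-10a-5p lies in HOXB at chr11:96317186-96317208 and miR-10b-5p in HOXD at chr2:74726074-74726096, both on the plus strand. miR-196a-5p comes from HOXB at chr11:96265187-96265208 and from HOXC at chr15:102973365-102973386, both on the plus strand, and miR-196b-5p from HOXA at chr6:52230129-52230150 on the minus strand.
miR-10a-5p: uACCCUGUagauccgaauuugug
miR-10b-5p: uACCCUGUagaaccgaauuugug
miR-196a-5p: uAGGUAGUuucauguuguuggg
miR-196b-5p: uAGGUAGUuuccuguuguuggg
The members of each family share their seed and differ in 1 base outside it. The arrays carry probesets for the 5 precursor genes and not for the mature forms. These probesets lay between 3.72, the lowest value of Mir10a, and 4.91, the highest value of Mir196a-2, and 0 of the 5 reached the floor in any array.

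Each of the 4 clusters had HOX genes above the floor in all arrays, and few posterior genes were. A level above the floor does not by itself show that a gene was expressed. Of 18 axial and ParaHox factors, 13 were also above it in all arrays, among them Cdx1 (6.25 to 6.39) and Pdx1 (5.76 to 6.17). Of 37 genes, 23 (62.2%) were above the floor in all 6 arrays, against 64.7% of all 19938 genes, 8 in some arrays and 6 in none. By paralog groups, 7 of 11 genes of groups 1 to 4, 9 of 10 of groups 5 to 8, 6 of 7 of groups 9 and 10 and 1 of 9 of groups 11 to 13 were above it in all arrays. Of groups 11 to 13, Hoxa13, Hoxc12 and Hoxd11 were above it in 5 of 6 arrays. By clusters, the counts for all arrays were 5 of 10 in HOXA, 7 of 9 in HOXB, 7 of 9 in HOXC and 4 of 9 in HOXD. With the 99th percentile of the olfactory receptors as the floor, 14 genes were above it in all arrays, and with the 90th percentile 29.

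In HOXA, the genes above the floor in all arrays were Hoxa4, Hoxa6, Hoxa7, Hoxa9 and Hoxa10. Hoxa4 had 6.81, 6.94 and 6.83 in the unstimulated cultures of mice 2, 4 and 5 and 6.95, 6.70 and 6.80 with C5a, which is nearly level. Hoxa9, a regulator of blood stem cells as well as of the limb, had 6.94, 6.89 and 7.20 unstimulated and 6.67, 6.89 and 7.12 with C5a, with both cultures of mouse 5 above the others. Hoxa6 had 5.91, 5.95 and 6.21 unstimulated and 5.82, 5.85 and 5.95 with C5a, close to the floor. The annotated span of Hoxa3 overlaps those of Hoxa4, Hoxa5 and Hoxa6, so that their signals may not be fully separate. Hoxa11, which patterns the forearm and lower leg, was above the floor only in the unstimulated culture of mouse 2 with 5.55 and lay between 4.96 and 5.37 elsewhere. Hoxa13, the factor of the hand and foot plate, lay between 5.28 and 5.72 and above the floor in 5 arrays, and Hoxa5 between 5.19 and 5.33 and above it in 1. Hoxa2 and Hoxa3 reached it in none.

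In HOXB, Hoxb1 to Hoxb3, Hoxb5 to Hoxb7 and Hoxb9 were above the floor in all arrays and Hoxb13 in none. Hoxb1, of the hindbrain, had 6.46, 6.26 and 6.61 unstimulated and 6.36, 6.48 and 6.51 with C5a in mice 2, 4 and 5. Hoxb9 had 6.52, 7.05 and 6.63 unstimulated and 6.36, 6.87 and 7.00 with C5a. Their ranges over the arrays were 0.35 and 0.69, and for Hoxb1 both cultures of mouse 5 lay above the others. Hoxb2 had 6.37, 7.00 and 7.86 in unstimulated cultures of mice 2, 4 and 5 and 7.21, 6.82 and 8.08 with C5a, and was high in mouse 5.

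In HOXC, Hoxc4 to Hoxc11 were above the floor in all arrays. Hoxc8, a gene of the thoracic level of the trunk, had 8.23, 9.02 and 9.20 unstimulated and 8.74, 9.07 and 9.28 with C5a in mice 2, 4 and 5. Its lowest value was the unstimulated culture of mouse 2. Hoxc4 had 5.54, 5.54 and 5.91 unstimulated and 5.51, 5.48 and 5.98 with C5a, and Hoxc5 had 6.15, 6.35 and 7.00 unstimulated and 6.20, 6.31 and 6.57 with C5a, both highest in mouse 5. Hoxc11 had 5.94, 5.60 and 5.41 unstimulated and 5.86, 5.70 and 5.50 with C5a, and was lowest in mouse 5. Hoxc13, known for hair and nails, was above the floor only in mouse 4, with 5.83 unstimulated and 7.07 with C5a, and lay between 4.92 and 5.18 in mice 2 and 5. Both cultures of mouse 4 together were thus at least 2.05-fold above mouse 2, measured against the floor there, with measured means of 6.45 and 4.94 (adjusted p = 0.239).

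In HOXD, Hoxd3, Hoxd4, Hoxd8 and Hoxd9 were above the floor in all arrays. Hoxd8 had 7.26, 6.46 and 7.44 unstimulated and 6.79, 6.58 and 7.07 with C5a, and was lowest in mouse 4 in both groups. Hoxd9 had 6.57, 6.27 and 6.56 unstimulated and 6.48, 6.30 and 6.46 with C5a. Hoxd3 had 5.91, 5.75 and 6.08 unstimulated and 5.85, 5.91 and 6.05 with C5a, and Hoxd4, which it overlaps, had 5.72, 5.72 and 5.77 unstimulated and 5.72, 5.65 and 5.85 with C5a. The ranges over the arrays were 0.33, 0.20 and 0.31 for Hoxd3, Hoxd4 and Hoxd9. That of Hoxd8, 0.98, was the largest in HOXD. The posterior genes of this cluster, which are known for the forearm and digits, lay near or below the floor, with Hoxd10 above it in 3 arrays, Hoxd11, which it overlaps, in 5, and Hoxd12 and Hoxd13 in none. Hoxd1 was above it in none. In HOXD the median range over the arrays was lowest, with a median of 0.31 over its genes against 0.42 in HOXA, 0.90 in HOXB and 1.35 in HOXC.

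**Figure D1:**
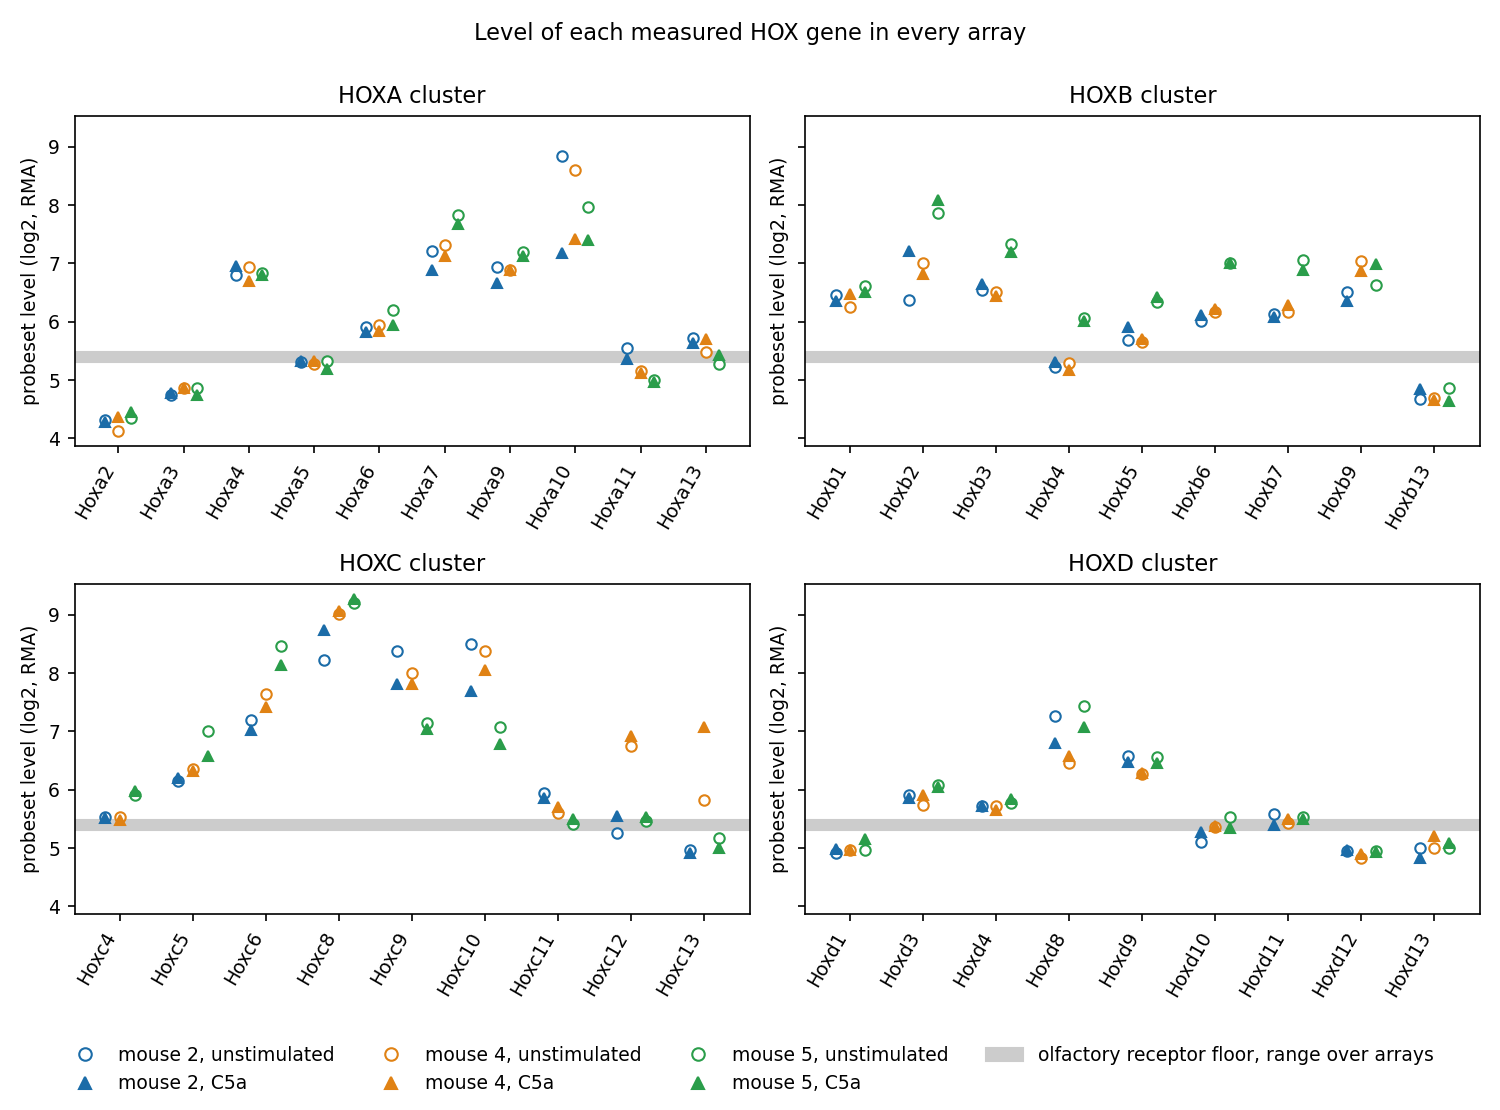
Log2 RMA level (vertical axis) of each of the 37 measured HOX genes (horizontal axis) in each of the 6 arrays, by cluster. Open circles are unstimulated cultures, filled triangles C5a cultures, colours the mice, and the grey band spans the olfactory receptor floor of the 6 arrays, 5.31 to 5.49. The green symbols of mouse 5 sit above the others from Hoxb2 to Hoxb7 and below them at Hoxc9 and Hoxc10.

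HOX genes differed between the mice. In mouse 5, Hoxb1 to Hoxb7, Hoxc4 to Hoxc6 and Hoxc8 lay above mice 2 and 4 in every array, and Hoxc9 to Hoxc11 lay below. By the moderated F test over the 3 mice, 7 of 37 HOX genes (18.9%) differed at an adjusted p under 0.05, against 2.5% of all probesets. They were Hoxb3, Hoxb4, Hoxb6 and Hoxb7 of HOXB and Hoxc6, Hoxc10 and Hoxc12 of HOXC, while HOXA and HOXD gave 0 of 10 and 0 of 9 with limma and 3 and 1 at an unadjusted p under 0.05. All probesets include those without a gene name. When only probesets naming 1 gene were fitted, 10 of 37 HOX genes passed the F test, beside 1522 of 21789 probesets. Both arrays of mouse 5 lay above all others for 16 HOX genes (43.2%, against 11.2% of all probesets) and below all others for 5 (13.5%, against 7.47%). The 16 were Hoxa6, Hoxa7 and Hoxa9, Hoxb1 to Hoxb7, Hoxc4 to Hoxc6, Hoxc8, Hoxd3 and Hoxd4, and the 5 were Hoxa11, Hoxa13 and Hoxc9 to Hoxc11. In groups 5 to 8 they numbered 8 of 10 above, and in groups 9 to 13 the count was 1 above (Hoxa9) and 5 below. Neighbours within a cluster overlap in part, so that these counts are not of independent genes. Some margins were small. The lowest mouse 5 value and the highest other value were 5.9502 and 5.9501 for Hoxa6, 6.51 and 6.48 for Hoxb1, and 5.77 and 5.72 for Hoxd4. In mouse 5, Hoxa11 (5.01 and 4.96) was below the floor, and Hoxa13 (5.28 and 5.43) and Hoxc11 (5.41 and 5.50) lay close to it.

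Hoxb6, a gene of the trunk and of the early forelimb field, had 6.01, 6.16 and 7.01 in unstimulated cultures of mice 2, 4 and 5 and 6.11, 6.22 and 7.01 with C5a. It was higher in mouse 5 than in mouse 2 by 0.95 (SE 0.08, adjusted p = 0.016), a 1.93-fold difference, and than in mouse 4 by 0.82 (SE 0.08, adjusted p = 0.0255). The 4 cultures of mice 2 and 4 lay between 6.01 and 6.22, clear of mouse 5.

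Hoxb7 had 6.13, 6.17 and 7.05 in unstimulated cultures of mice 2, 4 and 5 and 6.08, 6.28 and 6.88 with C5a. Its difference was 0.87 (SE 0.10, adjusted p = 0.0341) against mouse 2 and 0.74 (SE 0.10, adjusted p = 0.052) against mouse 4, so that only the former passed. A further probeset names both Hoxb7 and Hoxb8 and was not used.

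Hoxb4, known from the expansion of blood stem cells, was above the floor only in mouse 5, with 6.07 unstimulated and 6.02 with C5a. In mice 2 and 4 it had 5.23 and 5.29 unstimulated and 5.31 and 5.17 with C5a. Its measured difference in mouse 5 was 0.77 against mouse 2 and 0.81 against mouse 4 (SE 0.09, adjusted p = 0.0345 and 0.0333). Measured against the floor, it was at least 1.55-fold higher than in mouse 2 and at least 1.65-fold higher than in mouse 4. Hoxb3, whose annotated span overlaps that of Hoxb4, had 6.55, 6.51 and 7.34 unstimulated and 6.66, 6.44 and 7.20 with C5a in mice 2, 4 and 5. It passed against mouse 4 with 0.79 (SE 0.10, adjusted p = 0.0406) and not against mouse 2 with 0.67 (SE 0.10, adjusted p = 0.0565).

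Hoxb5 had 5.69, 5.65 and 6.34 unstimulated and 5.91, 5.70 and 6.43 with C5a, and passed against mouse 4 (0.71, SE 0.09, adjusted p = 0.0431) but not by the F test (adjusted p = 0.0556). For Hoxb2 the difference was 1.18 against mouse 2 and 1.06 against mouse 4, with an SE of 0.25 and adjusted p of 0.13 and 0.155. Of the 9 HOXB genes, 7 thus lay above the other mice in both arrays of mouse 5, and Hoxb9 and Hoxb13 overlapped between the mice.

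Hoxc6, a gene of the anterior trunk at the level of the forelimb, had 7.19, 7.64 and 8.46 in unstimulated cultures of mice 2, 4 and 5 and 7.03, 7.42 and 8.14 with C5a. It was 2.27-fold higher in mouse 5 than in mouse 2 (1.18, SE 0.09, adjusted p = 0.0115) and 1.70-fold higher than in mouse 4 (0.77, SE 0.09, adjusted p = 0.0348). Mouse 4 lay between the others in both groups.

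Hoxc10, a marker of the lumbar level and the hindlimb, ran the other way, with 8.49, 8.37 and 7.07 in unstimulated cultures of mice 2, 4 and 5 and 7.69, 8.05 and 6.78 with C5a. It was 2.25-fold lower in mouse 5 than in mouse 2 (-1.17, SE 0.15, adjusted p = 0.0409) and 2.44-fold lower than in mouse 4 (-1.29, SE 0.15, adjusted p = 0.0357). Hoxc9, its neighbour, had 8.38, 8.00 and 7.15 unstimulated and 7.81, 7.81 and 7.04 with C5a. It passed against mouse 2 (-1.01, SE 0.14, adjusted p = 0.0472) and not against mouse 4 (-0.81, SE 0.14, adjusted p = 0.0821) nor by the F test (adjusted p = 0.0653). Within HOXC, the genes up to Hoxc8 and those from Hoxc9 to Hoxc11 therefore lay on opposite sides of the other mice in mouse 5.

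Hoxc12 set mouse 4 apart, with 6.75 unstimulated and 6.92 with C5a against 5.25 and 5.55 in mouse 2 and 5.46 and 5.54 in mouse 5. In mouse 2 it was above the floor in 1 of 2 arrays, the C5a culture, so that its level there is poorly measured. It was 2.71-fold higher in mouse 4 than in mouse 2 (1.44, SE 0.10, adjusted p = 0.019), and in mouse 5 it was 2.52-fold lower than in mouse 4 (-1.34, SE 0.10, adjusted p = 0.01). It was the only HOX gene past the threshold between mice 4 and 2, a share of 2.7% against 0.726% of all probesets. In HOXA, Hoxa7 missed the F test (adjusted p = 0.0594) and passed between mice 5 and 2. It had 7.22, 7.32 and 7.83 unstimulated and 6.89, 7.12 and 7.68 with C5a, a difference of 0.70 between mice 5 and 2 (SE 0.09, adjusted p = 0.0412).

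Between mice 5 and 2 and between mice 5 and 4, 7 HOX genes each (18.9%) passed, 5 higher and 2 lower in mouse 5, against 2.15% and 1.83% of all probesets. These comparisons share the arrays of mouse 5. The median difference over the 37 genes was 0.15 and 0.12, over HOXB 0.67 and 0.74 and over groups 5 to 8 it was 0.66 and 0.62, beside 0.01 and 0.03 over all probesets. Over groups 11 to 13 it was -0.01 and -0.16, over HOXD 0.11 and 0.08, and over HOXC 0.15 and -0.19.

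The count of 7 depended on which mice were in the fit. Without mouse 2 it was 2 (Hoxc10 and Hoxc12), without mouse 4 it was 3 (Hoxb6, Hoxb7 and Hoxc6) and without mouse 5 it was 0 with limma, where 6 HOX genes had an unadjusted p under 0.05. Over all probesets 234, 621 and 37 passed without mice 2, 4 and 5. The macrophage markers, and 6 of 7 osteoblast markers, were lowest in mouse 5, the mouse that 6 of the 7 HOX genes set apart (Hoxc12 set mouse 4 apart), and their part in the result was not tested.

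**Figure D2:**
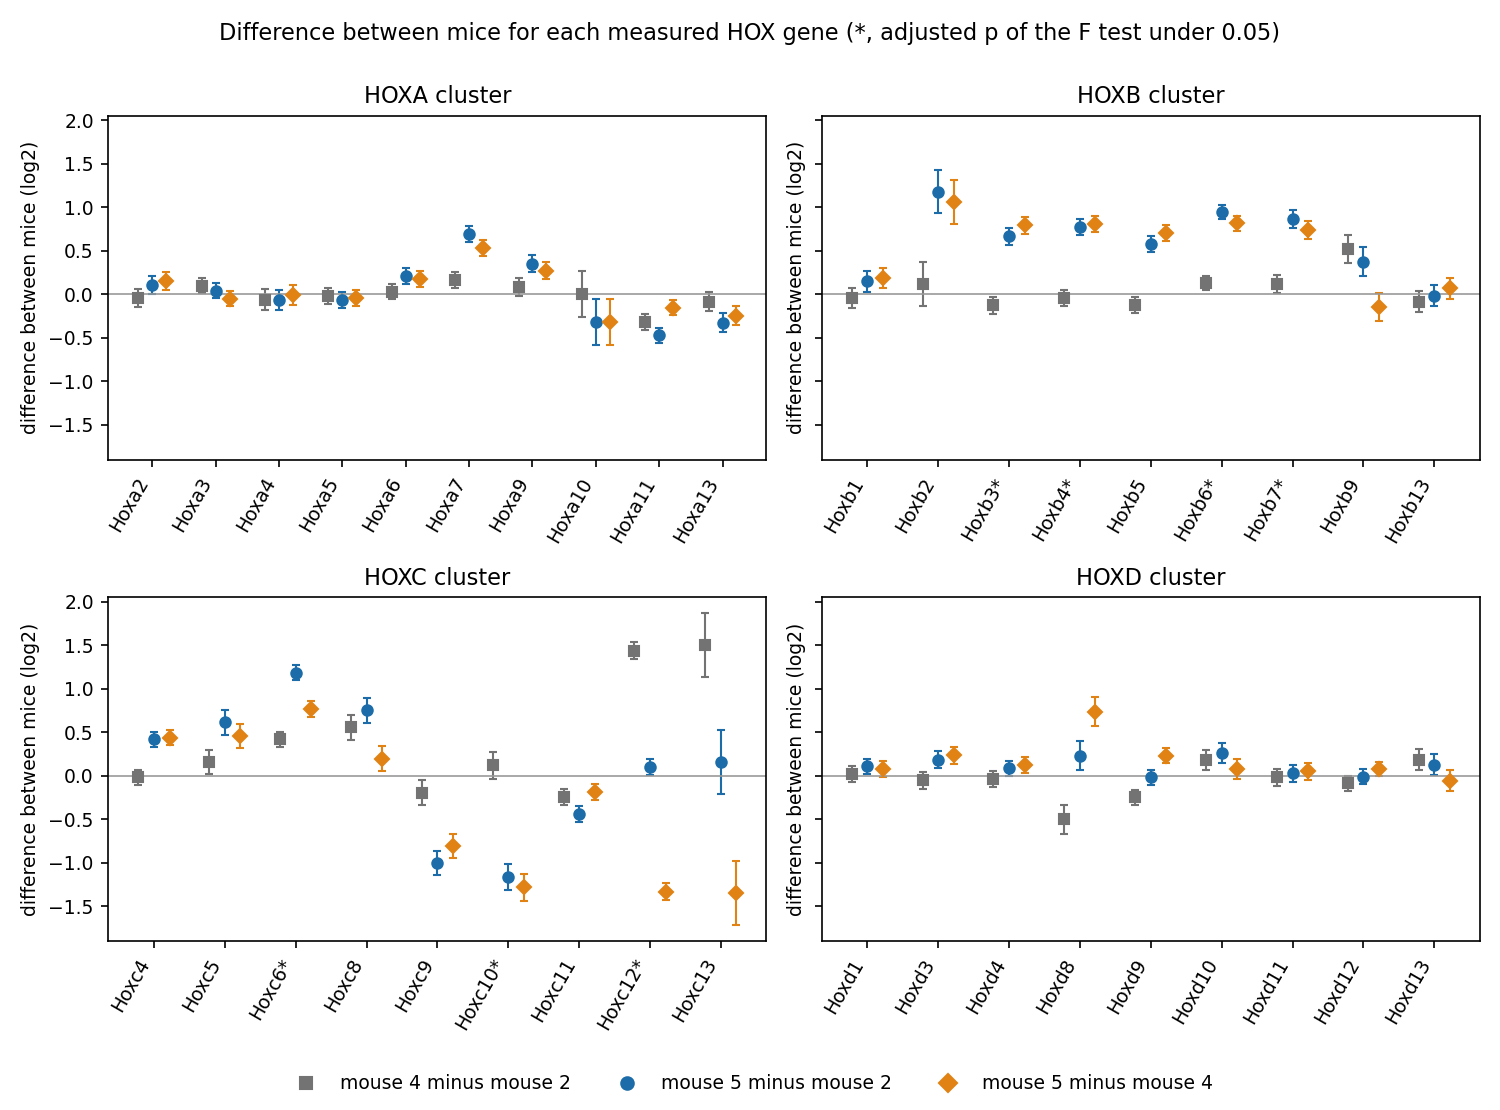
Difference between mice on the log2 scale (vertical axis) for each measured HOX gene (horizontal axis), by cluster, with bars of 1 SE from the limma fit over 6 arrays. Circles are mouse 5 minus mouse 2, diamonds mouse 5 minus mouse 4 and squares mouse 4 minus mouse 2, and a star marks the 7 genes past the F test. Circles and diamonds lie above 0 from Hoxb2 to Hoxb7 and Hoxc4 to Hoxc6 and below it from Hoxc9 to Hoxc11, and the squares stand out at Hoxc12 and Hoxc13.

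Of 4 factors that tell forelimb from hindlimb, 2 (Tbx5 and Pitx1) differed between the mice at an adjusted p under 0.05 by the F test, which 2.5% of all probesets passed. Tbx5, the T-box factor of the forelimb, had 4.83, 5.63 and 7.57 in unstimulated cultures of mice 2, 4 and 5 and 4.76, 5.56 and 7.77 with C5a, and was not above the floor in mouse 2. It was 4.21-fold higher in mouse 5 than in mouse 4 (2.07, SE 0.11, adjusted p = 0.00484) and at least 4.78-fold higher than in mouse 2 against the floor there, with measured means of 7.67 and 4.79 (adjusted p = 0.00239). Pitx1, the homeobox factor of the hindlimb, ran in the opposite order, with 9.20, 7.75 and 7.28 unstimulated and 8.13, 7.28 and 6.81 with C5a. It was 3.08-fold lower in mouse 5 than in mouse 2 (-1.62, SE 0.18, adjusted p = 0.0281), and the difference from mouse 4 did not pass (-0.47, SE 0.18, adjusted p = 0.344). Tbx4, the T-box factor of the hindlimb, had 6.16, 6.73 and 6.48 unstimulated and 6.21, 6.52 and 6.56 with C5a and did not pass (adjusted p = 0.235 by the F test). Isl1 lay between 5.21 and 5.43 and was above the floor in 2 arrays.

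Of 23 measured limb patterning factors, 5 differed between the mice at an adjusted p under 0.05, again beside 2.5% of all probesets. Emx2, a factor of the shoulder girdle, had 4.98, 5.98 and 7.08 unstimulated and 5.19, 6.05 and 7.31 with C5a. Its measured difference between mice 5 and 2 was 2.11 (SE 0.09, adjusted p = 0.00266), at least 3.44-fold against the floor. It was 2.26-fold higher in mouse 5 than in mouse 4 (adjusted p = 0.012). En1, the ventral factor of the limb bud, had 5.26, 5.61 and 6.46 unstimulated and 5.37, 5.70 and 6.25 with C5a (adjusted p = 0.0433 by the F test). Emx2 and En1 were lowest in mouse 2, where neither was above the floor, and highest in mouse 5, as was Tbx5. Tbx3, of the posterior limb margin, was higher in mouse 5 than in mouse 4 by 1.27 (SE 0.12, adjusted p = 0.0205). Tbx15 and Lhx9 were higher in mouse 4 than in mouse 2, by 1.42 (SE 0.11, adjusted p = 0.0237) and 1.48 (SE 0.10, adjusted p = 0.019). Shox2, which shapes the proximal limb, was nearly level, with 7.59, 7.60 and 7.54 unstimulated and 7.47, 7.33 and 7.42 with C5a.

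**Figure D3:**
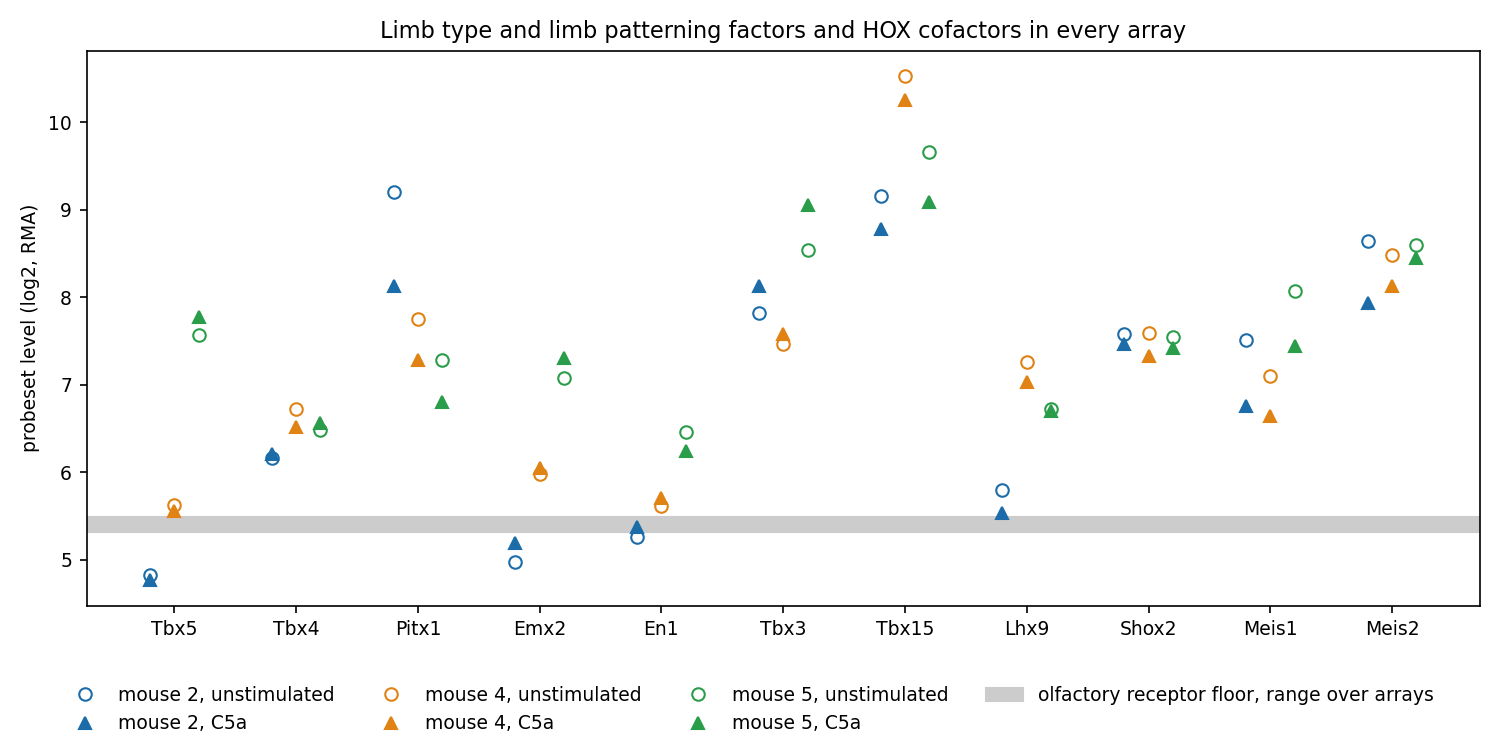
Log2 RMA level (vertical axis) of 11 limb factors and HOX cofactors (horizontal axis) in each of the 6 arrays, with open circles for unstimulated and filled triangles for C5a cultures, colours for the mice and a grey band for the olfactory receptor floor. Tbx5, Emx2 and En1 step up from mouse 2, where they are not above the floor, to mouse 4 to mouse 5. Pitx1 steps down, and Shox2 lies level between 7.33 and 7.60.

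Other lists gave further differences between the mice. Over all 10 lists, 18 of 137 measured genes (13.1%) passed the F test, against 2.5% of all probesets. In the retinoic acid pathway, 5 of 17 passed. They were Crabp1 and Crabp2, which bind retinoic acid in the cytosol, Aldh1a1, which makes it, Rdh10, which makes its precursor, and Cyp26b1, which degrades it. Cyp26b1 had 9.59, 8.75 and 7.33 unstimulated and 9.56, 8.86 and 7.80 with C5a, 4.03-fold lower in mouse 5 than in mouse 2 (-2.01, SE 0.14, adjusted p = 0.0096). Rdh10 was higher in mouse 5 than in mice 2 and 4, by 0.90 and 0.64 (SE 0.08, adjusted p = 0.0179 and 0.0443), and Crabp1 was 5.51-fold higher in mouse 5 than in mouse 2 (adjusted p = 0.00261). Aldh1a1 was low in mouse 4, 3.72-fold below mouse 5 (adjusted p = 0.0102) and 3.68-fold below mouse 2 (adjusted p = 0.0226), and Crabp2 was higher in mouse 4 than in mouse 2 by 1.86 (SE 0.20, adjusted p = 0.0469).

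Of 18 craniofacial and neural crest factors, 3 passed the F test (Six2, Lhx6 and Pax9), with Six2 higher in mouse 5 than in mice 2 and 4 by 1.02 and 1.35 and Lhx6 by 1.11 and 0.74. Of 18 axial and ParaHox factors, 2 passed (Meox1 and Meox2, factors of the somites), and of 8 TALE cofactors 1 (Meis1). Meis1, a cofactor of the proximal limb, was higher in mouse 5 than in mouse 4 by 0.88 (SE 0.10, adjusted p = 0.0357). Of the Polycomb proteins (20), Trithorax proteins and H3K27 demethylases (9), genes beside the clusters (13) and noncoding RNAs of the clusters (9), 0 passed the F test of limma and 1, 1, 2 and 0 had an unadjusted p under 0.05, with the smallest adjusted p at 0.228 for Phc3, 0.11 for Kmt2a, 0.26 for Hibadh and 0.576 for Mir10a.

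No HOX gene passed the adjusted threshold between C5a and unstimulated cultures. The count was 0 of 37, against 0.0112% of all probesets, and the smallest adjusted p was 0.122. At an unadjusted p under 0.05, 4 HOX genes (10.8%) were lower with C5a, against 8.58% of all probesets, and 0 were higher, against 7.61%. The share of lower genes is near that of all probesets, and the 4 became 1 without the pairing by mouse. The signs ran alike in all 3 mice for 7 genes that were lower (18.9%, against 17.7% of all probesets) and 4 that were higher (10.8%, against 18.3%). The median difference was -0.03 over the 37 genes and 0.01 over all probesets.

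Hoxa10, a posterior gene known from the uterus, the femur and the control of osteoblast genes, had the largest difference. It had 8.84, 8.60 and 7.97 in unstimulated cultures of mice 2, 4 and 5 and 7.18, 7.42 and 7.41 with C5a. The mean was 8.47 ± 0.45 (SD, n = 3) unstimulated and 7.33 ± 0.13 (SD, n = 3) with C5a. The difference was -1.14 (SE 0.22, adjusted p = 0.122 from limma), 2.20-fold lower, with -1.66, -1.19 and -0.56 within mice 2, 4 and 5. At an unadjusted p under 0.05 together with a difference of at least 1.5-fold, the thresholds of the study's methods, it was the only HOX gene past them in the paired limma fit, and the same held for the methods' t-test. The difference was smallest in mouse 5, and it was -1.42 without that mouse.

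Hoxc10 had the next smallest p, with -0.47 (SE 0.12, adjusted p = 0.175) and -0.80, -0.33 and -0.29 within mice 2, 4 and 5. Its groups overlapped, with 7.98 ± 0.79 (SD, n = 3) unstimulated and 7.51 ± 0.66 (SD, n = 3) with C5a. For Hoxc6 the difference was -0.23 (SE 0.07, adjusted p = 0.226) and for Hoxa7 -0.23 (SE 0.07, adjusted p = 0.25), both lower in 3 of 3 mice. Hoxc9 had -0.29 (SE 0.11, adjusted p = 0.324) and Hoxc12 0.18 (SE 0.08, adjusted p = 0.362). The 33 genes above an unadjusted p of 0.05 lay between -0.29 and 0.34, with the highest value at Hoxc13, where mouse 4 gave 1.24 and mice 2 and 5 gave -0.05 and -0.17. In HOXB the differences ran from -0.03 to 0.29 and in HOXD from -0.23 to 0.08, and neither cluster held a gene with an unadjusted p under 0.05.

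**Figure D4:**
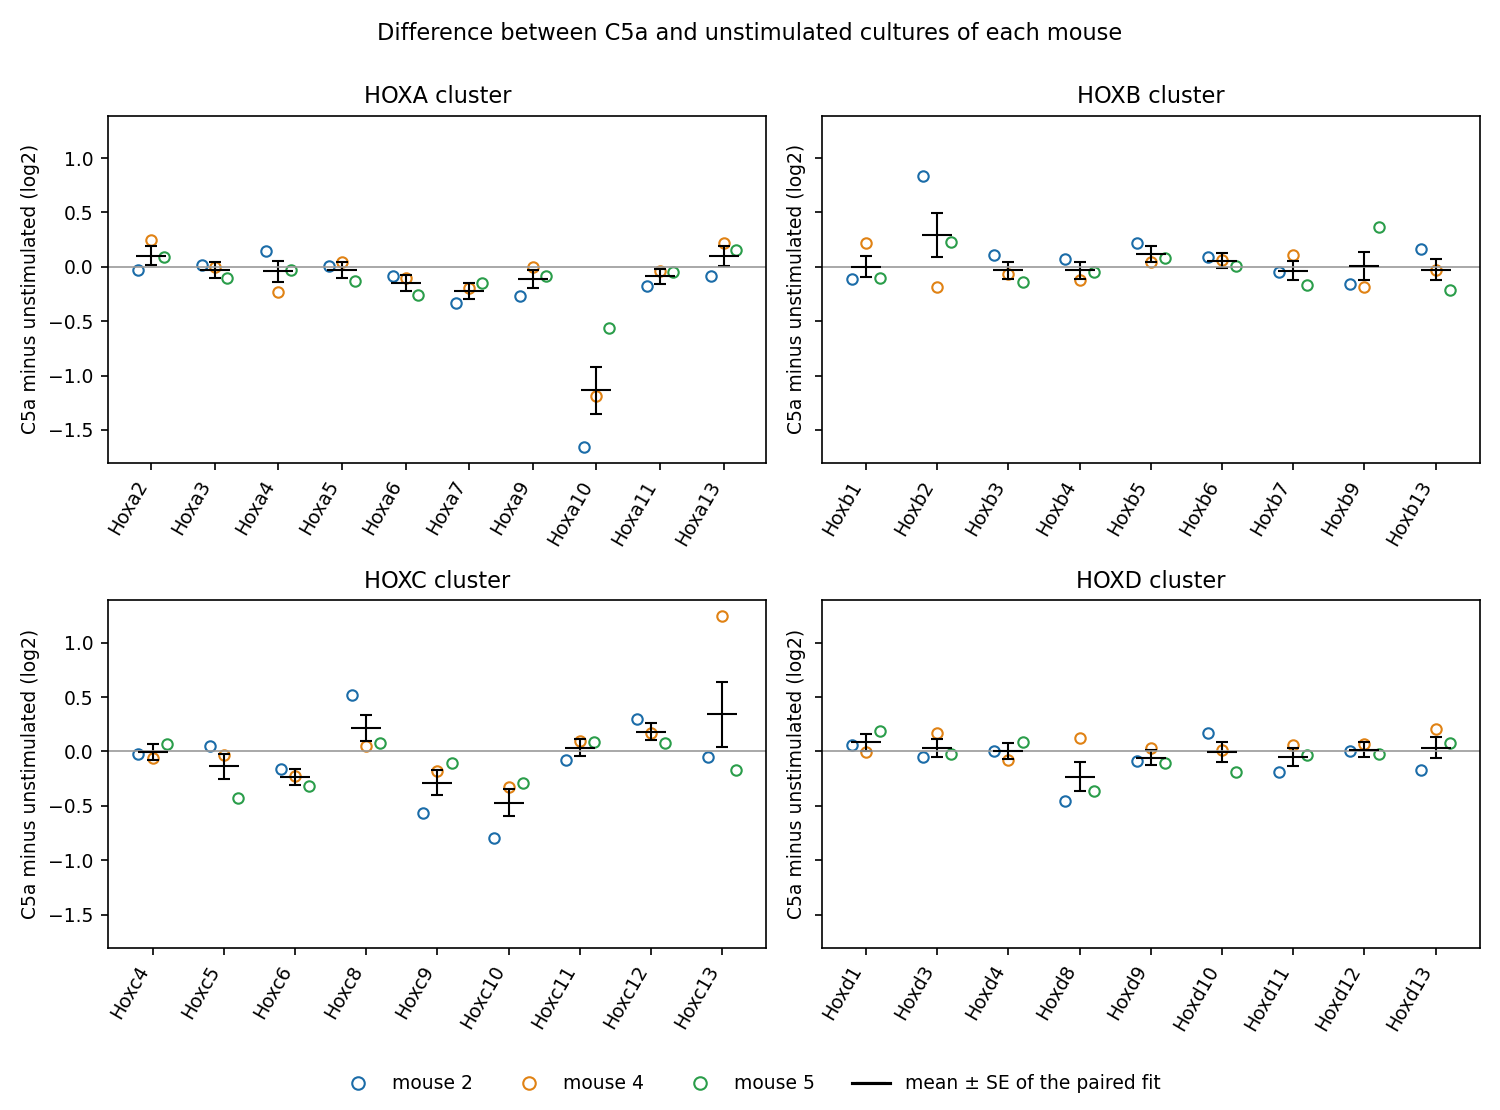
C5a minus unstimulated on the log2 scale (vertical axis) for each measured HOX gene (horizontal axis), by cluster, with an open circle for each of the 3 mice and a black bar for the mean ± SE of the paired fit. Hoxa10 is lower in all mice, from -1.66 to -0.56, while most other genes lie near 0 with SEs of 0.07 to 0.30.

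Partners and regulators of the HOX genes gave no call either in the fit over all probesets. Of 137 measured list genes, 0 passed the adjusted threshold between C5a and unstimulated cultures in limma, and at an unadjusted p under 0.05 there were 24 lower (17.5%, against 8.58% of all probesets) and 12 higher (8.76%, against 7.61%). Of 8 TALE cofactors 3 were lower at that p. Meis1 had 7.51, 7.10 and 8.07 unstimulated and 6.76, 6.64 and 7.44 with C5a (-0.61, SE 0.09, adjusted p = 0.0984), Meis2 had -0.40 (adjusted p = 0.221) and Pknox2 -0.49 (adjusted p = 0.294). Pknox1 had 0.26 (adjusted p = 0.324). With only probesets naming 1 gene in the limma fit, Meis1 passed (adjusted p = 0.0344).

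Of 4 limb type factors 1 was lower, Pitx1 with -0.67 (SE 0.15, adjusted p = 0.14), whereas Tbx5 had 0.03 and Tbx4 -0.03. Of 23 limb patterning factors 6 were lower and 2 higher, with Tbx18, Tbx15, Twist1 and Prrx1 at the smallest p (-0.43, -0.41, -0.30 and -0.38, adjusted p from 0.112 to 0.165), and Shox2 had -0.17 (adjusted p = 0.361). Among 18 craniofacial factors 2 were higher, Dlx1 and Dlx2 with 0.37 and 0.61, and 2 lower, Dlx5 and Dlx6 with -0.68 and -0.37 (adjusted p from 0.111 to 0.239). These are distal-less genes that lie in neighbouring pairs, and Dlx5 is known as an activator of osteoblast genes.

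Of 18 axial and ParaHox factors 1 was higher and 1 lower. They were the somite factors Meox1 with 0.97 (SE 0.15, adjusted p = 0.102) and Meox2 with -1.25 (SE 0.12, adjusted p = 0.0811). Of 17 retinoic acid genes 2 were higher and 2 lower, among them Crabp2 with 1.45 (SE 0.16, adjusted p = 0.0869) and Aldh1a1 with -0.62 (SE 0.11, adjusted p = 0.116).

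Of 20 Polycomb proteins 3 were higher and 4 lower, with Ezh1 at -0.34, Phc2 at 0.27, Ring1 at -0.31 and Phc1 at -0.25 (adjusted p from 0.141 to 0.188). Of 9 Trithorax proteins and H3K27 demethylases 2 were higher and 2 lower, with Kdm6a at -0.28, Wdr5 at 0.44, Dpy30 at -0.27 and Rbbp5 at 0.20 (adjusted p from 0.164 to 0.241). Kdm6b, the demethylase that inflammatory signals are known to induce, had 8.14, 8.31 and 8.26 unstimulated and 8.48, 7.83 and 8.60 with C5a (0.07, SE 0.19, adjusted p = 0.933). Of 13 genes beside the clusters 3 were lower, with Skap2, next to HOXA, at -0.63 (SE 0.07, adjusted p = 0.0869), Calcoco1 at -0.42 and Hibadh at -0.24. The noncoding RNAs of the clusters gave 0 of 9 at an unadjusted p under 0.05.

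Markers of other cells differed between the groups in no list at the adjusted threshold. Of all probesets, 8.58% were lower and 7.61% higher with C5a at an unadjusted p under 0.05. At an unadjusted p under 0.05, the counts lower and higher with C5a were 1 and 0 of 7 for osteoblasts, 2 and 0 of 9 for macrophages and osteoclasts, 1 and 0 of 5 for adipocytes, 1 and 1 of 5 for chondrocytes, 0 and 2 of 7 for skeletal muscle, 0 and 2 of 5 for smooth muscle and pericytes and 0 and 0 of 5 for endothelium. Between the mice, 4 of 7 osteoblast, 2 of 5 chondrocyte and 1 of 7 skeletal muscle markers passed the F test besides the macrophage markers. Of all probesets 2.5% passed it. Of 5 endothelial markers, 0 were above the floor in all arrays. The adipocyte markers had a summed level of 10.14 to 10.78, 10.40 to 11.23 and 9.88 to 9.90 in mice 2, 4 and 5, and those of chondrocytes 10.25 to 10.52, 11.11 to 11.26 and 10.41 to 10.75.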

How the data were processed

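RNA of 6 cultures was hybridised to Mouse Gene 1.0 ST arrays. The authors used Affymetrix Expression Console and then BRB-ArrayTools, and deposited log2 values of the robust multiarray average for 35556 probesets; program versions and the probeset genome build are not given in the sources used here. The number of arrays limits the precision. Genes were named through the platform annotation (21789 probesets name 1 gene, 1621 several, 12146 none here), and all Entrez Gene IDs of the HOX genes matched the RefSeq table.

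From these values, limma (version 3.58.1, R 4.3.3) was run over all probesets with mouse and treatment in the model, no filter and Benjamini-Hochberg adjustment; it was also tested on simulated data. Cultures were paired by mouse because the series' design text ties each cell pool to a mouse. Deviations from group means correlated at 0.495 to 0.684 within mice and at -0.446 to -0.035 between mice. Because the deviations of a group cancel out, the values between mice tend to be negative when those within mice are positive.

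The HOX genes, 10 gene lists (155 entries, 139 measured) and 7 marker lists were chosen with earlier results of these data known. Values in every array are given for the HOX genes with the smallest p and for those above the floor, and up to 4 genes per list with the smallest p are named, besides Tbx4, Tbx5, Pitx1, Shox2 and Kdm6b. A marker list's summed level is the log2 of its summed linear values. Where a probeset was at or below the floor in both arrays of a mouse, a fold is a bound against the floor. The p beside such a fold is that of the measured difference. Alternatives were no pairing, the methods' t-test, a paired t-test, only probesets above the 40th percentile in mean, probesets naming 1 gene, median centring, quantile normalization, a variance trend with robust estimation, the model without treatment, other floors, the probeset with the largest spread, and leaving out arrays and mice.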

Additional observations from a re-analysis of the deposited data

How the results depend on the processing

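The counts of HOX genes stayed at 0 past the adjusted threshold between C5a and unstimulated cultures under every alternative run. Without the pairing (no mouse block) the count with an unadjusted p under 0.05 and a lower level was 1 instead of 4, and it was 1 with the methods' t-test and 1 with a paired t-test; leaving out an array or a mouse gave 1 to 3. Over all probesets the count past the adjusted threshold, 4 with the pairing and 5 without it, was 373 with the filter, 795 with probesets naming 1 gene, and 0 with either t-test, and leaving out arrays or mice gave 0 to 3. Between the mice, the 7 HOX genes were all among the 10 called with the filter or with probesets naming 1 gene (Hoxa7, Hoxb5 and Hoxc9 were added), and 4 were called without treatment in the model and 0 to 3 when a mouse was left out. Over all probesets 888 became 1349 with the filter, 1522 with probesets naming 1 gene, 423 without treatment in the model and 37 to 621 when a mouse was left out. The 23 genes above the floor became 14 with the 99th percentile. Leaving out single arrays without the pairing turned the difference of Hoxc6 to 0.015 (C5a array of mouse 2) and 0.11 (unstimulated array of mouse 5). That of Hoxc12 turned to -0.28 (C5a array of mouse 4) and -0.10 (unstimulated array of mouse 2). In these fits the groups no longer hold the same mice, so that differences between mice enter the comparison. Their share in the change was not tested. Of 290 values of single genes under alternatives, 263 kept direction and side of the threshold, 12 lost the call and 11 gained it. Each HOX gene has a single probeset, so the choice of probeset changed nothing. The adjusted p of Hoxa10 ranged from 0.05 to 0.554. With 2 cultures per mouse and 3 pairs, small differences were below what these arrays resolve, and probesets near the floor carry little signal over background.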
